A study of Mus musculus with 8 samples.

Results

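The vacuolar ATPase (V-ATPase) and the lysosomal nutrient-sensing complexes were examined as 31 genes measured in mouse embryonic fibroblasts (MEFs) with and without glucose. The genes were taken by name: every row whose symbol starts with Atp6v or Atp6ap, pseudogene names aside, together with Tcirg1, Lamtor1 to Lamtor5, the Rag GTPase genes Rraga to Rragd, Slc38a9 and Mcoln1. Of 49492 rows in the expression table, 37 carried these names, and 31 of them passed a filter on low values (1 or more in 2 or more of the 8 samples). They comprised 9 V1 subunits, 9 V0 subunits, 2 accessory proteins, 5 Ragulator subunits, 4 Rag GTPases, 1 amino acid transporter and 1 channel.

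The 8 samples were polyA RNA libraries of Pontin f/f MEFs that stably expressed Flag-tagged Pontin from a lentivirus and from which endogenous Pontin had been deleted with Cre virus. Pontin is a chromatin-remodeling ATPase. In Pontin WT cells the expressed protein was wild-type, and in Pontin RA cells 2 arginines that CARM1 methylates were replaced by alanine. Each genotype was grown in normal medium or in glucose starvation medium, which was glucose-free and carried dialyzed serum, with 2 samples per group (n = 2 for all values here). Each genotype is 1 stably expressing line, so the form of Pontin and the line cannot be told apart, and the labels do not say whether the 2 samples of a group came from separate cultures: the p-values measure the spread between these samples, which may be technical. The design asks which transcripts need these arginines of Pontin once glucose is withdrawn.

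The V-ATPase is a rotary proton pump that acidifies lysosomes. Its cytosolic V1 sector hydrolyses ATP, its membrane V0 sector carries protons across the membrane, and both sectors can come apart and reassemble. On the lysosomal surface the pump binds Ragulator, a pentameric scaffold that anchors heterodimers of RagA or RagB with RagC or RagD. When amino acids are plentiful the Rag GTPases recruit mTORC1, the kinase complex that promotes growth and restrains autophagy. Many lysosomal genes, V-ATPase subunits among them, carry E-boxes of the sequence CACGTG that the MiT/TFE transcription factors bind.

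Values are read counts divided by a scaled library size, in the unit CPM. The libraries held 43205841 to 56363034 counted reads, and 3 reads corresponded to 0.0548 to 0.0690 CPM. Differences are log2 differences of value + 1 with the standard error (SE) from limma, and a difference was called at a Benjamini-Hochberg adjusted p under 0.05 over 16232 genes. The row of Ruvbl1, which encodes Pontin, was at 28.4 and 27.6 CPM in WT cells in normal medium, 27.9 and 28.4 in starved WT cells, 36.8 and 32.0 in RA cells in normal medium and 45.05 and 42.9 in starved RA cells. The row was higher in all 4 RA libraries, and it cannot tell wild-type from mutant transcripts. Of 10 fibroblast markers 9 reached the filter, and their sum was 9918 to 10246 CPM in normal medium, 5313 to 5406 in starved WT cells and 7042 to 7059 in starved RA cells. Its members did not all move alike: Fn1 was at 2390 and 2324 CPM in WT cells in normal medium and 2493 and 2332 in starved WT cells, and at 2375 and 2366 and then 3161 and 3185 in RA cells, and Dcn was at 13.3 and 13.8 and then 35.9 and 33.9 in RA cells. The 8 macrophage and osteoclast markers summed to 24.1 to 29.6 CPM in normal medium, 50.2 to 51.2 in starved WT cells and 41.2 to 41.7 in starved RA cells. Only Cd68, Csf1r and Ctsk of that list reached the filter, while Ptprc and Ocstamp stayed at or below 0.0783 and Adgre1 and Lyz2 at or below 0.230. The 4 endothelial markers summed to 2.02 to 3.43 CPM in normal medium, 8.92 to 9.43 in starved WT cells and 5.99 to 6.34 in starved RA cells, with Pecam1 and Cdh5 below 0.5, and the 4 epithelial markers stayed between 1.44 and 3.21. The part of these shifts in the results below was not tested. In bulk RNA, fewer cells of a type and less RNA per cell cannot be told apart.

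The promoter sequences that hold E-boxes are shown first, because the motif is a feature that several of these genes share. RefSeq windows of 300 bases, from 250 before to 50 after an annotated start on GRCm38.p6, were matched by symbol for 25 of the 31 genes. The 6 genes without a window were Atp6v1c1, Atp6v1b2, Atp6v1h, Atp6v1g1, Lamtor3 and Atp6v0a2, and their promoters were not searched. The letters CACGTG, searched on both strands, stood in a window of 9 of the 25 genes (36%), compared with 8.09% of all 27025 genes with a window and 11.5% of the 10351 among them that passed the filter. The longer form TCACGTG, which contains the shorter motif, stood in the same number of genes, 9 of 25, against 4.29% of all genes and 6.84% of those passing the filter. The forkhead motif GTAAACA was found for none of the 25 genes, for 4.05% of all genes and for 3.05% of those passing the filter. With so low a share, its absence from 25 genes says little. The windows also do not reach as far as the sites of the forkhead factor FOXO3a that the study tested at Map1lc3b. The 9 genes were Atp6v0b, Atp6v0d1, Atp6v0e, Atp6v1a, Lamtor1, Lamtor4, Mcoln1, Rragb and Rragc. The stretches below lie upstream of the annotated start of 5 of them and are written 5′ to 3′ in the direction of the gene, with each CACGTG they hold in capitals. Mcoln1 has 2 matches in its window, of which the printed stretch holds the first.
Atp6v0b (chr4:117887334-117887405, minus strand): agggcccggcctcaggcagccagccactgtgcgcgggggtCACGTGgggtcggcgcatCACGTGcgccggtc
Mcoln1 (chr8:3500408-3500456, plus strand): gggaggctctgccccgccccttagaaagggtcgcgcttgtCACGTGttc
Rragc (chr4:123917281-123917366, plus strand): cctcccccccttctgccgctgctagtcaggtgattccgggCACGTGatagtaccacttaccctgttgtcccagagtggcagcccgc
Lamtor4 (chr5:138255322-138255423, plus strand): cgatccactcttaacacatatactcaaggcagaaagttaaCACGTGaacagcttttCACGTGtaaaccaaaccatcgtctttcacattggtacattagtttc
Lamtor1 (chr7:101905729-101905814, plus strand): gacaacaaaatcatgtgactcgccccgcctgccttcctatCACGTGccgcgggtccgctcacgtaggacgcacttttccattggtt
In Atp6v0b the motifs began 36 and 18 bases before the RefSeq start, in Mcoln1 the printed motif 71, in Rragc 112, in Lamtor1 68, and in Lamtor4 120 and 104 bases before it. Genes with and without the motif both responded to starvation: the median log2 response in WT cells was 0.96 over the 9 genes with it, with a range of 0.27 to 2.48, and 0.57 over the 16 without it, with a range of −0.80 to 3.02. Rragd and Atp6v1d, with responses of 3.02 and 1.69, held no match in these windows, and Lamtor1 and Atp6v0e, with responses of 0.45 and 0.27, held one. The 6 genes without a window, with responses of 0.62 to 1.91, are in neither group. A match is a description of the sequence and not a sign that a factor binds there.

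**Figure D1:**
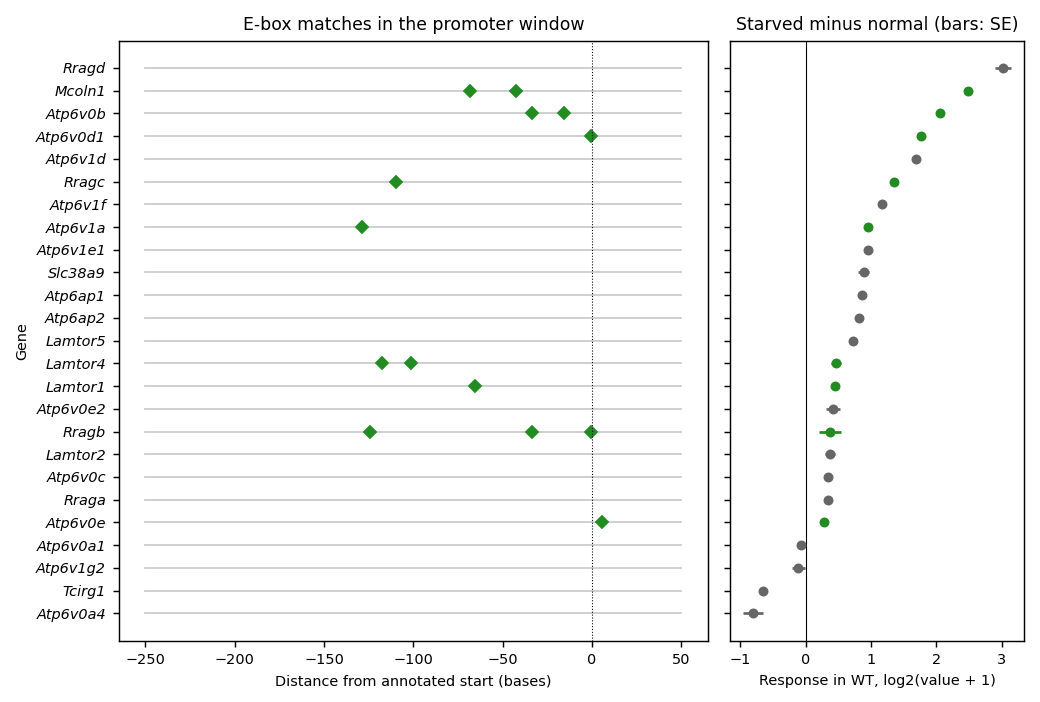
Position of E-box matches (diamonds) in the promoter windows of 25 genes, in bases from the annotated start, beside the response of each gene to starvation in WT cells (log2 difference of value + 1, bars SE; green, genes with a match). The 9 genes with a match lie between 0.27 for Atp6v0e and 2.48 for Mcoln1, with genes without a match among and on both sides of them.

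In WT cells glucose starvation raised 27 of the 31 genes and lowered 2, where 39.3% of all genes tested rose and 39.2% fell. The median log2 response of the 31 genes was 0.87, against 0.00 over all genes. Of the 27 genes, 12 rose at least 2-fold. In RA cells 25 of the 31 genes rose and 1 fell, where 35.0% of all genes rose and 33.7% fell, and the median response was 0.50 against 0.01 over all genes. In RA cells 5 genes rose at least 2-fold, and the 2-fold counts were not made over all genes. The difference between both responses, tested as a genotype-by-medium interaction, was called for 24 genes: 21 had the lower response in RA cells and 3 the higher, where 26.1% of all genes tested were lower and 24.5% higher. The median interaction was −0.35 on the log2 scale, against −0.01 over all genes. With median-ratio scaling of the libraries the interaction was lower for 21 and higher for 3. Of all 16232 genes 4231 were then lower and 3987 higher. With total-read scaling it was lower for 20 and higher for 3, and of all genes 3353 were lower and 4648 higher. The median interaction was then −0.27, against 0.05 over all genes.

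All 27 genes that rose in WT cells had the smaller log2 response in RA cells, and 23 of them also rose there. Their response in RA cells was 58.5% of that in WT cells at the median, with a range of 8.65% for Atp6v0e to 98.6% for Atp6v0e2. The 27 genes were taken for their rise in WT cells, a choice that favours smaller responses in RA cells. The counts and the share are therefore a description, and they were not made for all genes that rose in WT cells. Atp6v0b, Atp6v0d1, Mcoln1, Rragc and Rragd also stand in lists that the study drew from these same samples, and their direction is not independent evidence. The same holds for Flcn and Slc17a5 among the pathway genes given further below. It also holds for Slc36a1 and Pqlc2, which are counted there among the lysosomal channels and transporters with the lower response.

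**Figure D2:**
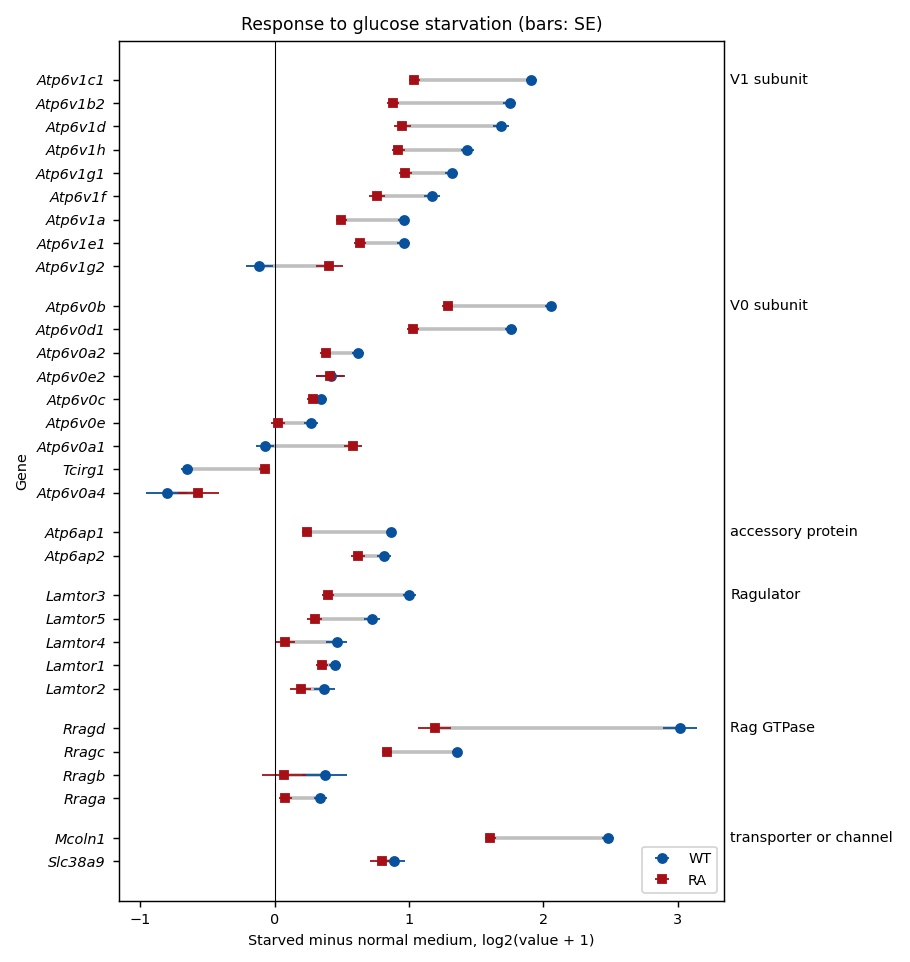
Response to glucose starvation of the 31 genes in WT cells (circles) and RA cells (squares), as log2 differences of value + 1 with SE bars, by role. The RA square lies left of the WT circle for all 27 genes that rose in WT cells, and right of it for Tcirg1, Atp6v0a1, Atp6v1g2 and Atp6v0a4.

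Between the genotypes, the genes differed little in normal medium and more after starvation. In normal medium 4 of the 31 genes were higher in RA cells by limma (6.68% of all genes higher, 2.95% lower): Atp6v1f by 0.28, Atp6v0e by 0.20, Atp6v1e1 by 0.19 and Tcirg1 by 0.18 on the log2 scale. None was called lower, and at an unadjusted p under 0.05 there were 11 higher and 2 lower. With edgeR and DESeq2 4 genes were higher. Calls were lost without WT_normal replicate 1 and without RA_normal replicate 2, both among the 31 genes and over all genes. The median log2 difference of the 31 genes was 0.082, against 0.008 over all genes. It was 0.066 against 0.003 without WT_normal replicate 1, and 0.041 against 0.003 without RA_normal replicate 2. It was 0.073 against 0.013 without WT_normal replicate 2, and 0.124 against 0.013 without RA_normal replicate 1. Under total-read scaling 2 of the 31 were higher and 2 lower, and over all genes more were then lower than higher. In starved cells 18 genes were lower in RA cells and 3 were higher, where 32.1% of all genes tested were lower and 30.8% higher, and the median log2 difference was −0.28 against −0.01 over all genes. The 3 higher genes were Tcirg1, Atp6v0a1 and Atp6v1g2.

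**Figure D3:**
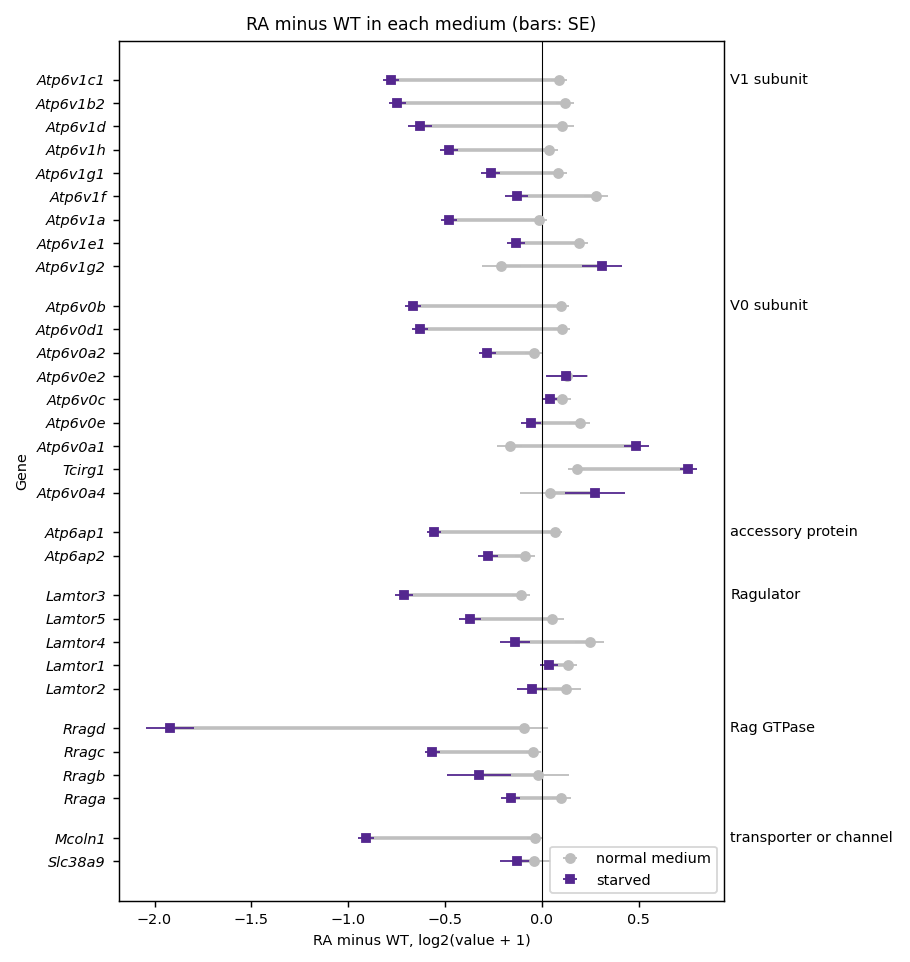
RA minus WT for the 31 genes in normal medium (grey circles) and after starvation (purple squares), as log2 differences of value + 1 with SE bars. In normal medium the differences lie between −0.21 and 0.28, and after starvation between −1.92 for Rragd and 0.76 for Tcirg1.

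Of the 9 genes of the V1 sector, 8 rose in WT cells (39.3% of all genes), with a median log2 response of 1.32 over the 9. All 9 rose in RA cells (35.0% of all genes), with a median of 0.88. The interaction was lower for 8 and higher for 1 (26.1% of all genes lower and 24.5% higher). Atp6v1c1 encodes subunit C, which bridges the sectors and leaves the pump when it comes apart. Its values were 83.2 and 83.2 CPM in WT cells in normal medium, 311 and 320 in starved WT cells, 86.1 and 91.3 in RA cells in normal medium and 187 and 180 in starved RA cells. Starvation thus took it to 3.79 times its level in WT cells and 2.07 times in RA cells, and the starved groups did not overlap. The interaction was −0.87 ± 0.06 (SE, adjusted p = 2.67e-09). The gene lies at chr15:38661933-38692446 on GRCm38.

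Atp6v1b2 encodes the widely used B subunit of the ATP-hydrolysing head. It was at 59.4 and 63.3 CPM in WT cells and 65.2 and 68.2 in RA cells in normal medium, and at 210 and 207 in starved WT cells and 127 and 120 in starved RA cells. Both genotypes rose, WT cells further, and the interaction was −0.86 ± 0.06 (adjusted p = 1.07e-08). Atp6v1d, which encodes a subunit of the central rotor shaft, was at 30.9 and 36.2 CPM in WT and 35.5 and 36.6 in RA cells in normal medium, and at 108 and 112 in starved WT and 71.1 and 70.2 in starved RA cells. Its interaction was −0.73 ± 0.09 (adjusted p = 2.33e-06). Atp6v1h encodes the H subunit, which blocks ATP hydrolysis by the free V1 sector. It was at 51.4 and 48.5 CPM in WT and 50.5 and 52.0 in RA cells in normal medium, where the groups overlapped, and at 132 and 141 in starved WT and 96.8 and 98.7 in starved RA cells. The interaction was −0.51 ± 0.07 (adjusted p = 7.24e-06).

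The remaining V1 genes differed less between genotypes. Atp6v1e1, a peripheral-stalk subunit, had the smallest V1 interaction: it was at 54.8 and 54.8 CPM in WT and 60.6 and 65.0 in RA cells in normal medium, and at 105 and 111 in starved WT and 99.1 and 97.0 in starved RA cells. Its interaction was −0.32 ± 0.07 (adjusted p = 6.20e-04), and its starved groups did not overlap, but its difference in starved cells of −0.13 was not called without WT_starved replicate 2 (−0.09), RA_starved replicate 1 (−0.15) or RA_starved replicate 2 (−0.12), nor without the filter on low values. In normal medium its difference of 0.19 was not called without WT_normal replicate 1 or 2 (0.19 each) or RA_normal replicate 2 (0.14), nor without the filter. Atp6v1a, the catalytic A subunit, ranged from 96.5 to 200 CPM with an interaction of −0.46. Atp6v1f, a rotor subunit, ranged from 37.7 to 93.7 CPM with an interaction of −0.41. Its difference between genotypes in starved cells, −0.13, was not called (adjusted p = 0.0734). Its normal-medium difference of 0.28 was not called without WT_normal replicate 1 (0.18) or without the filter. The stalk subunit gene Atp6v1g1 ranged from 89.1 to 242 CPM with an interaction of −0.35, and a processed pseudogene, Gm13453, matches it at 99.4% over 357 bases and was itself at up to 42.0 CPM, so reads may be split between the rows.

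Atp6v1g2, the G isoform best known from neurons, moved the other way. It was at 8.52 and 8.04 CPM in WT cells and 6.64 and 7.44 in RA cells in normal medium, and at 8.17 and 7.03 in starved WT and 9.62 and 9.70 in starved RA cells. In WT cells the media overlapped and the log2 difference was −0.11, while RA cells rose by 0.41. The interaction was 0.52 ± 0.14 (adjusted p = 6.69e-03). The difference between genotypes in starved cells, 0.31, was not called without WT_starved replicate 2 (0.22), RA_starved replicate 1 (0.32) or RA_starved replicate 2 (0.31). Per kilobase of exon, Atp6v1g2 made up 3.61 to 4.15% of both G genes in WT cells in normal medium and 1.30 to 1.61% in starved WT cells, and 3.05 to 3.20% and 2.16 to 2.24% in RA cells. Its exons share 144 bases with Nfkbil1 on the opposite strand, and the library kit does not mark strand.

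**Figure D4:**
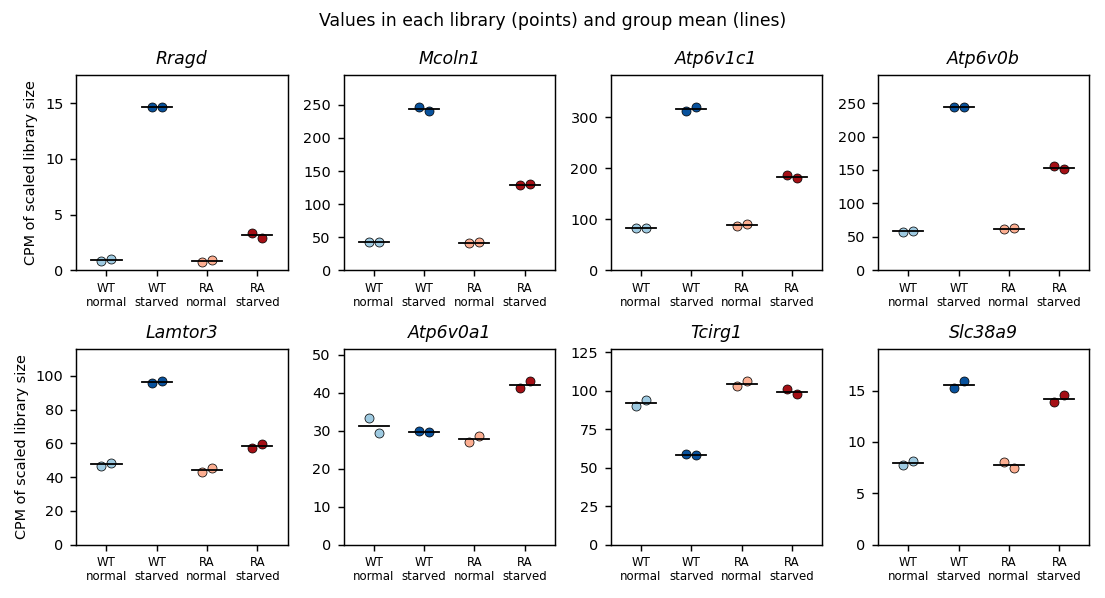
CPM in each library (points) and group mean (lines) for 8 of the genes, on axes that start at 0. Rragd, Mcoln1, Atp6v1c1, Atp6v0b and Lamtor3 were highest in the starved WT libraries, Atp6v0a1 in the starved RA libraries, Tcirg1 was lowest in the starved WT libraries, and Slc38a9 rose in both genotypes, from 7.498 to 8.18 CPM in normal medium to 13.9 to 15.9 after starvation.

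The V0 genes moved in both directions. Of these 9 genes 6 rose and 2 fell in WT cells (39.3% and 39.2% of all genes), and 6 rose and 1 fell in RA cells (35.0% and 33.7%). The interaction was lower for 4, higher for 2 and not called for 3 (26.1% of all genes lower and 24.5% higher). The lower responses were those of Atp6v0b, Atp6v0d1, Atp6v0a2 and Atp6v0e. Atp6v0b, a ring subunit, was at 56.8 and 59.3 CPM in WT and 61.5 and 63.0 in RA cells in normal medium, and at 244 and 244 in starved WT and 156 and 151 in starved RA cells. It rose 4.20-fold in WT cells and 2.47-fold in RA cells, with an interaction of −0.76 ± 0.06 (adjusted p = 1.29e-08). The antisense gene Gm12841 shares 243 exon bases with Atp6v0b on the opposite strand, and its row moved alike, from 36.3 and 38.5 to 150 and 151 CPM in WT cells and from 39.6 and 41.8 to 101.5 and 95.5 in RA cells. Reads of the shared bases cannot be told apart. Atp6v0d1, which encodes the subunit that couples the ring to the rotor, was at 57.4 and 60.4 CPM in WT and 62.3 and 64.3 in RA cells in normal medium, and at 199 and 205 in starved WT and 132 and 128 in starved RA cells. Its interaction was −0.73 ± 0.06 (adjusted p = 3.76e-08).

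The other ring and small-subunit genes changed less. Atp6v0c, the main ring proteolipid, ranged from 216 to 293 CPM, rose by 0.35 in WT and 0.29 in RA cells, and had an interaction of −0.06 that was not called. Processed copies of Atp6v0c match up to 99.8% of bases over 465 bases. Atp6v0e, a small membrane subunit, rose by 0.27 in WT cells, while its difference in RA cells was 0.02. Its interaction of −0.25 was not called without the filter on low values or without WT_starved replicate 2 (−0.16). Its normal-medium difference was not called without WT_normal replicate 1 (0.16), WT_normal replicate 2 (0.23) or RA_normal replicate 2 (0.17). Nor was the latter called with total-read scaling (0.15) or without the filter. Its isoform Atp6v0e2 had the smallest V0 interaction, −0.01 ± 0.15 (adjusted p = 0.979), which was 0.06 with total-read scaling and 0.01 with edgeR. It was at 9.63 and 7.90 CPM in WT and 9.01 and 10.3 in RA cells in normal medium, and at 11.2 and 12.8 in starved WT and 12.9 and 13.5 in starved RA cells. It rose in both genotypes, by 0.42 in WT and 0.41 in RA cells.

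The 4 genes for the a subunit, which lines the proton path and directs the pump to different membranes, did not move together. Tcirg1 encodes a3, the isoform of lysosomes and of the osteoclast border. It was at 90.03 and 94.0 CPM in WT cells and 103 and 106 in RA cells in normal medium, and at 58.6 and 57.9 in starved WT cells and 100.75 and 97.5 in starved RA cells. It fell by 0.65 in WT cells, whereas the difference of −0.07 in RA cells was not called (adjusted p = 0.136). The interaction was 0.58 ± 0.06 (adjusted p = 6.31e-07), and Tcirg1 was the gene most raised in starved RA relative to starved WT cells among the 31, by 0.76. The normal-medium difference of 0.18 was not called without WT_normal replicate 1 (0.15) or RA_normal replicate 2 (0.16). Nor was it called with total-read scaling (0.13) or without the filter on low values. Atp6v0a1, known from neurons and synaptic vesicles, was at 33.4 and 29.3 CPM in WT and 27.0 and 28.5 in RA cells in normal medium, and at 29.9 and 29.6 in starved WT and 41.2 and 42.9 in starved RA cells. The starved and fed WT libraries overlapped (−0.07), RA cells rose by 0.58, and the interaction was 0.65 ± 0.09 (adjusted p = 1.71e-05).

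Atp6v0a2, an isoform linked to the Golgi and endosomes, ranged from 60.8 to 101.1 CPM, rose by 0.62 in WT and 0.38 in RA cells and had an interaction of −0.24. Its exons share 663 bases with the antisense gene 4930404A12Rik on the opposite strand, whose row went from 27.6 and 25.8 to 43.0 and 44.7 CPM in WT cells and from 25.3 and 25.4 to 31.9 and 33.6 in RA cells. Reads of these bases cannot be told apart, and the shares given next rest on them too. Atp6v0a4, the isoform of kidney intercalated cells, was at 0.639 to 2.34 CPM. It passed the filter with 5 samples: every library in normal medium and RA_starved replicate 1. Atp6v0a4 was thus kept through its normal-medium values, a choice that favours a fall, and it is counted among the genes that fell. It fell by 0.80 in WT and 0.57 in RA cells, the latter not called without RA_starved replicate 2 (−0.35), and its interaction of 0.23 was not called. It shares 259 exon bases with D630045J12Rik, a gene on the same strand, whose row went from 15.1 and 14.0 to 7.63 and 6.87 CPM in WT cells and from 13.3 and 13.2 to 11.0 and 9.66 in RA cells. Divided by exon length and summed over the 4 genes, Tcirg1 made up 56.4 and 58.9% in WT cells in normal medium and 39.2 and 39.8% in starved WT cells, and 61.5 and 62.4% and then 54.0 and 53.0% in RA cells. The share of Atp6v0a2 went from 27.8 and 27.0% to 46.3 and 45.5% in WT cells and from 26.0 and 24.5% to 29.7 and 30.3% in RA cells. By these lengths Atp6v0a2 had the largest share of the 4 in starved WT cells, and Tcirg1 in the other groups. The lengths cover the annotated exons of a gene and can exceed those of its transcripts. The order of the genes may differ with transcript lengths, which were not used.

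**Figure D5:**
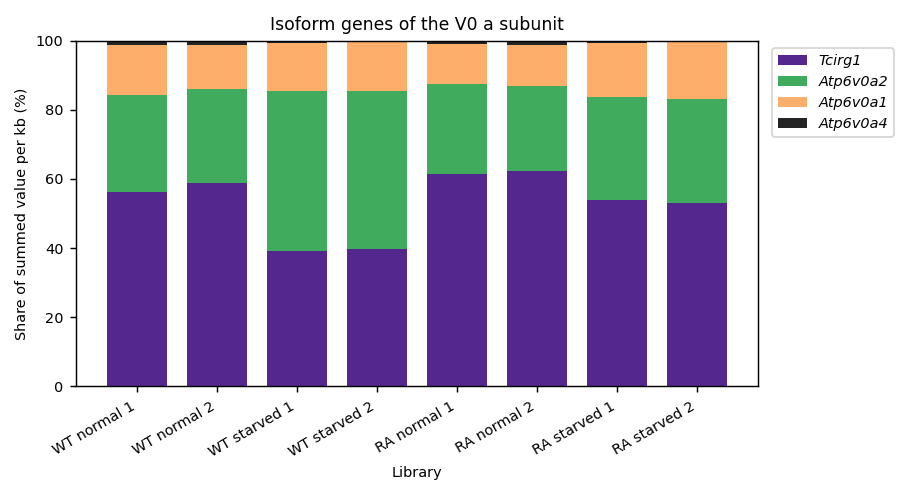
Share of each gene for the V0 a subunit in each library, from CPM per kilobase of exon, with the 4 genes adding up to 100%. The Tcirg1 share is 39.2 to 39.8% in starved WT libraries and 53.0 to 62.4% in the others.

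Both accessory proteins rose in both genotypes (39.3% of all genes rose in WT and 35.0% in RA cells). Atp6ap1 encodes Ac45, a glycoprotein that helps assemble the V0 sector and guide the pump. It was at 187 and 188 CPM in WT and 196 and 197 in RA cells in normal medium, and at 335 and 351 in starved WT and 232 and 233 in starved RA cells. Its log2 response was 0.87 in WT and 0.24 in RA cells, with an interaction of −0.63 ± 0.05 (adjusted p = 4.08e-08). Atp6ap2, the prorenin receptor, was at 68.1 and 71.4 CPM in WT and 63.3 and 67.8 in RA cells in normal medium, and at 117 and 130 in starved WT and 102 and 100.9 in starved RA cells. Its interaction of −0.19 ± 0.07 was close to the threshold (adjusted p = 0.0392). It was not called without WT_normal replicate 1 (−0.16), WT_starved replicate 2 (−0.12), RA_normal replicate 2 (−0.14), RA_starved replicate 1 (−0.20) or RA_starved replicate 2 (−0.18), with total-read scaling or edgeR, or without the filter on low values.

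All 5 Ragulator genes rose in WT cells (39.3% of all genes), with a median log2 response of 0.46. In RA cells 4 rose (35.0% of all genes), with a median of 0.30. Lamtor3, also called MP1 for its scaffolding of MEK and ERK, showed the largest interaction of the 5. It was at 46.7 and 48.3 CPM in WT and 43.0 and 45.2 in RA cells in normal medium, and at 95.6 and 96.7 in starved WT and 57.3 and 59.3 in starved RA cells. Its interaction was −0.61 ± 0.07 (adjusted p = 1.08e-06). The pseudogene Gm5900 matches Lamtor3 at 99.5% over 375 bases, and its row did not exceed 3.14 CPM. Lamtor1, the lipid-anchored subunit that tethers the complex to the lysosome, had the smallest interaction: it was at 59.8 and 59.4 CPM in WT and 65.5 and 65.8 in RA cells in normal medium, and at 79.0 and 84.8 in starved WT and 82.9 and 85.3 in starved RA cells. The starved genotypes overlapped, and the interaction was −0.10 ± 0.06 (adjusted p = 0.213). The exons of Lamtor1 share 600 bases with Lrrc51 on the opposite strand, and reads of these bases cannot be told apart. The Lrrc51 row went from 3.35 and 2.84 to 11.4 and 10.6 CPM in WT cells. In RA cells that row went from 3.29 and 3.22 to 6.11 and 6.92 CPM. Lamtor5 ranged from 29.7 to 50.8 CPM with an interaction of −0.43, Lamtor4 from 13.8 to 21.2 CPM with an interaction of −0.38, and Lamtor2 from 23.6 to 33.3 CPM with an interaction of −0.18 that was not called. The rise of Lamtor2 in RA cells, 0.19, was not called without RA_normal replicate 1 or RA_starved replicate 1 (0.11 each), nor by DESeq2 or without the filter on low values.

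Among the Rag GTPases the pair of RagC-type genes moved most. Rragd encodes RagD and was almost silent in normal medium: it was at 0.826 and 1.05 CPM in WT and 0.736 and 0.891 in RA cells, and at 14.6 and 14.7 in starved WT but 3.35 and 2.93 in starved RA cells. It passed the filter with 5 samples, 4 of them starved. Its level rose 15.6-fold in WT cells and 3.86-fold in RA cells, the largest response of the 31 genes in WT cells, and the interaction was −1.82 ± 0.18 (adjusted p = 2.54e-07). The gene lies at chr4:32983037-33022180 on GRCm38. Rragc, its paralogue, was at 94.8 and 94.996 CPM in WT and 91.7 and 92.4 in RA cells in normal medium, and at 240 and 249 in starved WT and 166 and 164 in starved RA cells, with an interaction of −0.52 ± 0.05 (adjusted p = 4.82e-07). Per kilobase of exon, Rragd went from 0.560 and 0.708% of both genes to 3.79 and 3.67% in WT cells and from 0.515 and 0.619% to 1.29 and 1.14% in RA cells, so that Rragc supplied most of the transcripts in every library.

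Rraga, which encodes RagA, had the smallest interaction of the called Rag genes. It was at 58.7 and 56.5 CPM in WT and 63.0 and 60.7 in RA cells in normal medium, and at 70.3 and 76.3 in starved WT and 66.4 and 64.5 in starved RA cells. It rose by 0.34 in WT cells, its difference of 0.08 in RA cells was not called, and the interaction was −0.26 ± 0.07 (adjusted p = 4.99e-03). Its difference between starved genotypes, −0.16, was not called without WT_starved replicate 2 (−0.10) or RA_starved replicate 2 (−0.14). Rragb lay at the edge of the filter, with 3 samples of at least 1 CPM and a range of 0.598 to 1.498. The 3 samples were both starved WT libraries and RA_starved replicate 1, and every value in normal medium was below 1. Rragb was thus kept through its starved values, a choice that favours a rise, and it is counted among the genes that rose in WT cells. Its rise of 0.37 in WT cells was not called without WT_normal replicate 2 (0.24) or WT_starved replicate 2 (0.26), nor with the pseudocount of 0.1, total-read scaling, edgeR or DESeq2, nor without the filter.

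Of the lysosomal membrane proteins, Mcoln1 and Slc38a9 differed in their dependence on genotype. Mcoln1 encodes TRPML1, the calcium channel through which lysosomes signal during starvation. It was at 42.8 and 43.0 CPM in WT and 40.9 and 42.9 in RA cells in normal medium, where the groups overlapped, and at 247 and 241 in starved WT and 129 and 130 in starved RA cells. It rose 5.69-fold in WT cells and 3.09-fold in RA cells, and the interaction was −0.88 ± 0.06 (adjusted p = 2.79e-09). Slc38a9 encodes the arginine transporter that reports lysosomal amino acids to Ragulator. It was at 7.78 and 8.18 CPM in WT and 8.0 and 7.498 in RA cells in normal medium, and at 15.3 and 15.9 in starved WT and 13.9 and 14.5 in starved RA cells. It rose by 0.89 in WT and 0.80 in RA cells, and its interaction of −0.09 ± 0.12 was not called (adjusted p = 0.575).

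The 6 genes below the filter are isoforms known from other tissues. Atp6v1c2 was just under it, at 0.368 to 1.11 CPM with 1 sample of at least 1. Atp6v1b1 was at 0.0413 to 0.420 CPM. Atp6ap1l did not exceed 0.118 CPM and Atp6v0d2, the d isoform of osteoclasts, did not exceed 0.0419. Atp6v1g3 and Atp6v1e2 were at 0 in all 8 samples, which allows up to 0.0548 to 0.0690 CPM (3 reads, counting error only).

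The genes that surround these complexes in the pathway were taken from 8 lists with 55 genes, of which 50 were tested. In WT cells 30 rose and 18 fell (39.3% and 39.2% of all genes), in RA cells 29 rose and 9 fell (35.0% and 33.7%), and the interaction was higher for 15, lower for 18 and not called for 17 (24.5% of all genes higher and 26.1% lower). The median interaction was −0.03, near that of all genes. All 3 genes of the folliculin complex, which switches RagC and RagD to their active state, rose in both genotypes and had the lower response in RA cells. Flcn itself was at 32.8 and 32.0 CPM in WT and 32.2 and 30.6 in RA cells in normal medium, and at 251 and 248 in starved WT and 110 and 108 in starved RA cells, with an interaction of −1.15 ± 0.06 (adjusted p = 1.41e-10). Of 5 amino acid sensor genes the interaction was higher for 3 (24.5% of all genes), and the values of 0.17 for Sesn2 and 0.11 for Gatsl3 were not called. Gatsl2, an older symbol of Castor2 in the arginine sensor family, fell from 14.4 and 15.2 to 2.996 and 2.45 CPM in WT cells and from 13.3 and 12.4 to 6.46 and 6.03 in RA cells, with an interaction of 1.15 ± 0.15 (adjusted p = 6.40e-06).

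The other lists were small and are read against the same 24.5% higher and 26.1% lower of all genes. For the complexes that restrain or release the Rag GTPases, the interaction was higher for 1 of 3 GATOR1 genes, lower for 1 of 5 GATOR2 genes and higher for 2 of 3 KICSTOR genes tested. Their largest called values were 0.44 for Nprl3, −0.39 for Wdr24 and 0.83 for Kptn. Kptn fell by 0.30 in WT cells and rose by 0.53 in RA cells. Of 11 genes for V-ATPase assembly and regulation, 5 had the lower response in RA cells and 2 the higher, with Ccdc115, an assembly factor, at −0.68. Of 11 lysosomal channels and transporters tested, 6 were lower and 4 higher, with the sialic acid exporter Slc17a5 at −0.77. Of 9 genes of mTORC1, its activator Rheb and the TSC complex that inhibits Rheb, 3 were lower and 3 higher, with Tsc1 at −0.22 and Tsc2 at 0.18 among them, and the mTOR inhibitor Deptor had the largest value of 0.81: it fell by 0.76 in WT cells, and its difference of 0.04 in RA cells was not called (adjusted p = 0.766).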

How the data were processed

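RNA of 8 samples in 4 groups was sequenced as paired-end polyA libraries. Per the labels and the study's methods, the authors aligned reads with TopHat2 2.0.9 to mm9 and named bedtools and edgeR. The annotation, the counting of reads and the length of starvation of the RNA-seq samples are not given in the sources used here. The deposited signal values are read counts divided by a scaled library size (CPM), as set by the authors. Column names marked minus and plus were read as normal medium and starvation, after the study's own marking. All values corresponded to whole reads within 0.1 read, and 78.2 to 80.5% of counts from 1 to 9 were even, as when both mates are counted. Intervals from counts would cover counting error only.

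The files were planned for as CPM and held such scaled values. The filter kept the 16232 genes at 1 or more in 2 or more samples. log2(value + 1), which understates changes of low genes, was fitted with limma 3.58.1 (R 4.3.3, empirical Bayes with trend, 4 group means, 5 contrasts, two-sided, Benjamini-Hochberg adjustment). edgeR 4.0.16 and DESeq2 1.42.0 on recovered reads, a pseudocount of 0.1, no filter, median-ratio and total-read scaling, a replicate block, each sample left out and an adjusted p of 1e-05 were alternatives. On simulated data with 200 of 16232 genes changed 2-fold, the test recovered 100% for RA against WT under starvation, with 4.76% of calls false. For the interaction it recovered 99%, with 6.16% of calls false. The changed genes were drawn from well-counted genes, all genes had the same small dispersion, and far fewer genes changed than were called in the data. The recovery therefore does not cover low genes such as Rragb and Atp6v0a4.

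All 31 genes are named. Values in every sample are given where the interaction was called with an absolute log2 value of at least 0.5, and for the members with the largest and smallest interaction of each role. Pathway genes are named where they had the largest called interaction of their list. Sesn2, Gatsl3, Tsc1, Tsc2, Slc36a1 and Pqlc2 are named in addition, outside this rule. Members and lists were chosen with earlier results of these data known. Gene positions and exon lengths are from GENCODE M21 (GRCm38) and matched by symbol. Near-identical copies were sought with blastn 2.17.0 (at least 95% over at least 100 bases).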

Additional observations from a re-analysis of the deposited data

Results flagged for a closer look

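The response to starvation differed between WT and RA cells by the interaction test for 24 of the 31 genes. Of all genes tested 26.1% were lower and 24.5% higher. Of 50 pathway genes tested 15 were higher and 18 lower. The 8 given here were taken for the largest called interaction of their list, so the choice itself ensured that they differ. With 2 samples per group no group was large enough to be screened for outlying samples. Among V1 genes the response in RA less that in WT, on the log2 scale, was −0.87 for Atp6v1c1, −0.86 for Atp6v1b2, −0.73 for Atp6v1d, −0.51 for Atp6v1h, −0.46 for Atp6v1a, −0.41 for Atp6v1f, −0.35 for Atp6v1g1, −0.32 for Atp6v1e1 and 0.52 for Atp6v1g2. Among V0 genes it was −0.76 for Atp6v0b, −0.73 for Atp6v0d1, −0.25 for Atp6v0e, −0.24 for Atp6v0a2, 0.58 for Tcirg1 and 0.65 for Atp6v0a1. For the accessory proteins it was −0.63 for Atp6ap1 and −0.19 for Atp6ap2. For Ragulator it was −0.61 for Lamtor3, −0.43 for Lamtor5 and −0.38 for Lamtor4, and for the Rag GTPases −1.82 for Rragd, −0.52 for Rragc and −0.26 for Rraga. For the channel gene Mcoln1 it was −0.88. In the pathway lists it was −1.15 for Flcn, 1.15 for Gatsl2, 0.44 for Nprl3, −0.39 for Wdr24, 0.83 for Kptn, −0.77 for Slc17a5, −0.68 for Ccdc115 and 0.81 for Deptor.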

How the results depend on the processing

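Over the alternatives, 2237 of 2324 values of single genes kept their direction and side of the threshold, 46 lost a call, 16 gained one and 25 changed sign, none of the last called in either fit. The counts of genes called kept within 1.5 times under the other scalings, the pseudocount of 0.1, edgeR and DESeq2. Exceptions were the normal-medium comparison of RA and WT, with 4 genes called, and the interaction: without the filter limma called 0 of 31 in the former (11 higher and 2 lower at an unadjusted p under 0.05, 4 by edgeR and 4 by DESeq2), and at an adjusted p under 1e-05 it called 0 there and 13 in the interaction, against 24. When each sample was left out, 0 to 5 genes were called in normal medium, 18 to 22 under starvation, 28 to 29 for the WT response, 25 to 26 for the RA response and 22 to 24 for the interaction. Same-numbered samples did not deviate together (correlations of −0.01 to 0.16, mean 0.07), so the numbers were not taken as pairs: a replicate block gave 6 genes called in normal medium, 21 under starvation, 29 and 26 for the responses and 24 for the interaction.

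With total-read scaling the difference between genotypes in normal medium changed sign for Atp6v1h (−0.011), and the interaction for Atp6v0c (0.0090) and Atp6v0e2 (0.059, and 0.014 with edgeR). With samples left out, the RA minus WT difference in normal medium ranged over −0.0071 to 0.22 for Atp6v1d, −0.16 to 0.11 for Rragb, −0.0053 to 0.078 for Atp6v1h, −0.066 to 0.00017 for Mcoln1, −0.062 to 0.037 for Atp6v1a, −0.017 to 0.13 for Lamtor5, −0.080 to 0.0030 for Slc38a9 and −0.050 to 0.13 for Atp6v0a4. Under starvation it ranged over −0.012 to 0.088 for Lamtor1, −0.14 to 0.036 for Lamtor2 and −0.14 to 0.031 for Atp6v0e. The WT response ranged over −0.16 to 0.022 for Atp6v0a1, the RA response over −0.00021 to 0.048 for Atp6v0e and −0.12 to 0.26 for Rragb, and the interaction over −0.13 to 0.12 for Atp6v0e2. The cause of these changes was not tested. Values of Rragb and Atp6v0a4 were near 1 CPM, where 3 reads correspond to 0.0548 to 0.0690 CPM.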
